A study of Mus musculus with 4 samples.

Results

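The genes described are the 3 paralogs of the forkhead Foxp family that were chosen by symbol, Foxp1, Foxp2 and Foxp4, of 43346 gene rows counted in each library. All 3 had UMIs (unique molecular identifiers, 1 for each captured RNA molecule) in every library. The libraries were droplet single-cell RNA sequencing libraries from the forebrain of wild-type (wt) mouse embryos at E12.5, the age in embryonic days. One library each came from the dorsal cortex (CTX), the lateral (LGE), the medial (MGE) and the caudal (CGE) ganglionic eminence. All groups shared this genotype and age and differed in region, and tissue of several embryos was pooled before each library was made. With 1 library per region there was no replicate of a region, so regions were compared without a test and the intervals given cover counting error only. Other comparisons were made within libraries and tested over 3 or 4 libraries as replicates.

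Foxp proteins are transcription factors with a forkhead DNA-binding domain, a zinc finger and a leucine zipper through which family members pair with themselves and with each other. They act mostly as repressors and recruit CtBP proteins and the NuRD complex. In the forebrain Foxp1 and Foxp2 are known from the projection neurons of the striatum, which arise in the LGE, and from deep cortical layers, and Foxp2 is linked to vocal learning. Ebf1 and Isl1 are transcription factors of striatal projection neurons, above all of those in the direct pathway, and Tbr1 is a transcription factor of early-born cortical projection neurons.

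On GRCm38, Foxp1 (ENSMUSG00000030067) spans chromosome 6 from 98925338 to 99522721 on the minus strand. Foxp2 (ENSMUSG00000029563) spans chromosome 6 from 14901349 to 15441977 on the plus strand, and Foxp4 (ENSMUSG00000023991) spans chromosome 17 from 47867133 to 47924645 on the minus strand. Foxp1 had 27162 UMIs over all barcodes of the 4 libraries, Foxp2 had 11270 and Foxp4 had 11166. Foxp1 overlaps 4 other annotated genes on its own strand, of which the protein-coding Gm20696 had 1150 UMIs, so part of the Foxp1 count is uncertain. The gene that overlaps Foxp2, a microRNA gene, had 0 UMIs, and the antisense gene that overlaps Foxp4 had 5.

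Promoter windows from RefSeq (GRCm38.p6) matched Foxp1, with 3 starts, and Foxp4, with 1, and are shown because the UMIs of both genes were compared between cells with and without Ebf1, Isl1 and the paralogs themselves. Each window held the 250 bases before a start. It was searched on both strands for the forkhead core TGTTTA, the homeodomain core TAATTA and the Ebf half-sites CCCNNGGG, which do not overlap each other in these windows. The forkhead core was found in all 3 Foxp1 windows and not in the Foxp4 window, against 12% of 32851 promoter windows of the same length. The homeodomain core was found in the second Foxp1 window, against 4.84% of all windows, and the Ebf half-sites in the first, against 11.8%. In the first Foxp1 window an annotated exon reaches to 169 bases before the start. Both matches of that window lie within this stretch, the forkhead core at 91 to 86 bases and the Ebf half-sites at 114 to 107 bases, and the window is not printed. The second Foxp1 window held 2 forkhead cores. The core at 16 to 11 bases before the start lies in annotated exon bases and is not printed. Windows 2 and 3 of Foxp1 and the Foxp4 window are printed 5′ to 3′ on the minus strand, up to the first base of an annotated exon, with matches in capitals. They lie at chr6:99266533-99266765, chr6:99028314-99028548 and chr17:47924646-47924882. A match is a run of letters and not a measured binding site.
Foxp1, start 2: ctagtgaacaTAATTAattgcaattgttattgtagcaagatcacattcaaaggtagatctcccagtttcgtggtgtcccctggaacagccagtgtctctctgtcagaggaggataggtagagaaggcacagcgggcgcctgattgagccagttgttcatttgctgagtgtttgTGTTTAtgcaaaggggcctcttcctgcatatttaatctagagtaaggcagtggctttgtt
Foxp1, start 3: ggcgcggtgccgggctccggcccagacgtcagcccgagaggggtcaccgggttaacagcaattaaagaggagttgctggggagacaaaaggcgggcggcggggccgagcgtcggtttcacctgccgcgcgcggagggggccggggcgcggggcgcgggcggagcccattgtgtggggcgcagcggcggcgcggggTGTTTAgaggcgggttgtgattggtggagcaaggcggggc
Foxp4: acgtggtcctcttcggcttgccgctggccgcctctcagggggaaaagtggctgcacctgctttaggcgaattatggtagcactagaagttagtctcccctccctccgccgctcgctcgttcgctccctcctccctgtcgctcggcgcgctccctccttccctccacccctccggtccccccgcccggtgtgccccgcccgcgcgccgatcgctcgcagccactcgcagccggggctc

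The deposited tables held between 4301 and 6953 barcodes per library, and 3197 to 4751 cells were kept, with median depths of 6942 to 8240 UMIs. The lower gene limit removed 40.4% of the CTX barcodes and 14.3% to 22.6% of those of the other libraries. Pairs of libraries shared 4 to 15 cell barcodes. Progenitors were taken as high-Nes cells and young neurons as high-Dcx cells, with ln(1 + UMIs per 10000) of Nes (nestin, a filament of radial glia) or Dcx (doublecortin, of migrating neurons) above 1.5. The labels held: 5 radial glia markers summed to 2997 to 9355 UMIs per 1000000 (CPM) in high-Nes cells and 629 to 1410 CPM in high-Dcx cells, and 4 young neuron markers to 338 to 1017 CPM and 4675 to 5952 CPM. Glutamatergic markers reached 2503 CPM in CTX high-Dcx cells and at most 67.7 CPM in those of the other libraries. In barcodes with over 50% hemoglobin beta UMIs, which should lack the 3 genes and had median depths of 10080 to 14167 UMIs, each paralog had 0 to 2 UMIs per library.

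Foxp1, the paralog with the most UMIs, was highest among high-Dcx cells in LGE and among high-Nes cells in CTX. In high-Nes cells it had 172 CPM in CTX (interval 163 to 182, 905 cells), 137 in LGE (128 to 147, 655 cells), 92.6 in MGE (84.4 to 101, 539 cells) and 73.5 in CGE (60.9 to 87.9, 182 cells). In high-Dcx cells it had 127 CPM in CTX (118 to 136, 800 cells), 349 in LGE (339 to 358, 2119 cells), 53.2 in MGE (49.5 to 57.1, 2202 cells) and 80.0 in CGE (75.7 to 84.6, 2286 cells). The order was therefore CTX, LGE, MGE, CGE in progenitors and LGE, CTX, CGE, MGE in young neurons. In the high-Nes order MGE exceeded CGE by a ratio of 1.26 (1.03 to 1.55), the pair whose interval came nearest to 1. In a summed count, fewer cells with a transcript and fewer transcripts per cell cannot be told apart. After each cell had been thinned to 3000 UMIs, 38.8% of LGE high-Dcx cells held a Foxp1 UMI, against 30.7% in CTX, 11.7% in MGE and 13.5% in CGE. Without thinning these shares were 56.8%, 57.8%, 23.0% and 21.3%. At equal depth 242 of 2074 LGE cells (11.7%) had 3 or more Foxp1 UMIs, against 10 of 784 CTX cells (1.28%).

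Foxp2 was low in progenitors of every region and high in LGE young neurons. In high-Nes cells it had 36.7 CPM in CTX (32.6 to 41.3), 33.6 in LGE (29.0 to 38.9), 29.0 in CGE (21.3 to 38.6) and 10.3 in MGE (7.72 to 13.5). The first 3 of these levels did not differ beyond counting error, with ratios between pairs of 1.09 (0.904 to 1.32) to 1.27 (0.928 to 1.76), and MGE was below them. In high-Dcx cells Foxp2 had 241 CPM in LGE (233 to 249), 83.3 in CGE (78.8 to 87.9), 45.0 in CTX (40.1 to 50.4) and 8.91 in MGE (7.45 to 10.6). LGE exceeded MGE by a ratio of 27.1 (22.7 to 32.5) there, and no neighbours in this order overlapped. At equal depth 32.4% of LGE high-Dcx cells held a Foxp2 UMI, 11.2% in CGE, 11.4% in CTX and 1.35% in MGE. The CGE and CTX shares were alike while the CGE level in CPM was above the CTX level. In CGE 85 of 2251 cells (3.78%) had 3 or more Foxp2 UMIs at equal depth, against 2 of 784 in CTX (0.255%). Without thinning the shares were 45.2% in LGE, 15.1% in CGE, 24.6% in CTX and 2.18% in MGE.

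Foxp4 was highest in CTX and LGE young neurons, with the CTX level slightly above that of LGE. In high-Nes cells it had 75.7 CPM in CTX (69.7 to 82.1), 36.6 in LGE (31.7 to 42.0), 10.9 in MGE (8.23 to 14.1) and 8.64 in CGE (4.73 to 14.5), and the MGE and CGE levels did not differ beyond counting error. In high-Dcx cells it had 174 CPM in CTX (164 to 184), 155 in LGE (149 to 162), 36.4 in CGE (33.5 to 39.5) and 6.10 in MGE (4.90 to 7.51). The ratio of CTX to LGE was 1.12 (1.04 to 1.20) and that of CTX to MGE was 28.5 (23.0 to 35.8). At equal depth 39.5% of CTX high-Dcx cells held a Foxp4 UMI, 32.2% in LGE, 8.80% in CGE and 1.44% in MGE, and without thinning these shares were 69.5%, 49.2%, 15.3% and 3.27%.

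**Figure D1:**
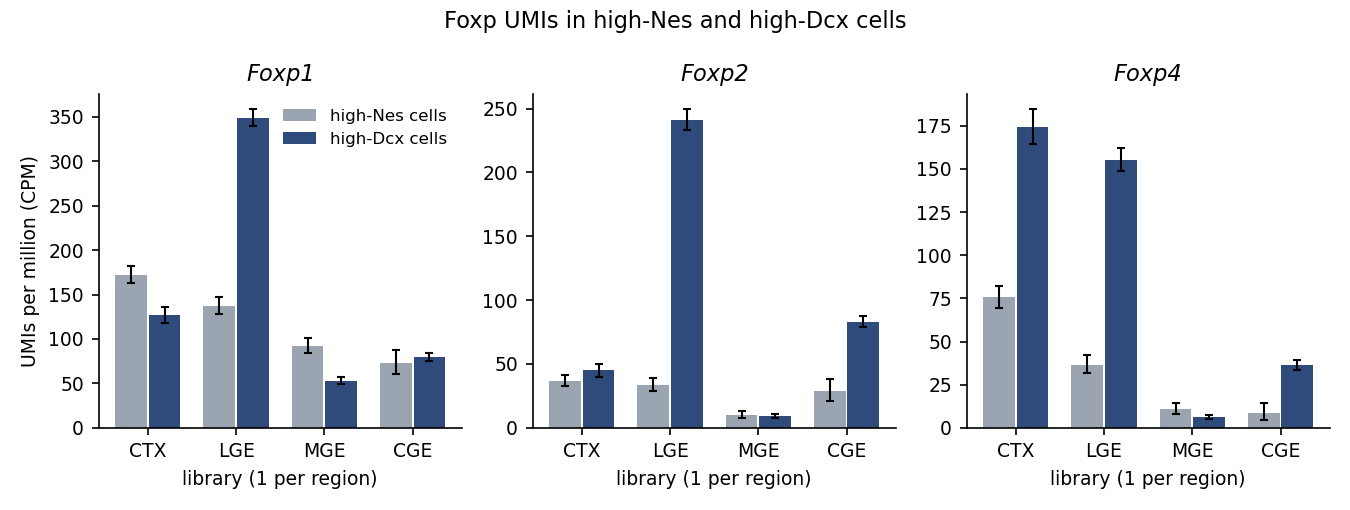
Foxp1, Foxp2 and Foxp4 levels in UMIs per 1000000 (CPM) in high-Nes cells (grey) and high-Dcx cells (blue) of each library, with exact Poisson 95% intervals as error bars. LGE high-Dcx cells stand above all other bars for Foxp1 (349 CPM) and Foxp2 (241 CPM), and for Foxp4 the CTX and LGE high-Dcx bars (174 and 155 CPM) are the highest.

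Among genes at 20 CPM or more in at least 1 library, 13.5% of 7470 had a highest library at least 2 times the lowest in high-Nes cells, and 20.6% of 7441 did in high-Dcx cells (with 1 CPM added to each level). All 3 Foxp genes were past that fold in both populations. They share a symbol root and not a sample, and the 4 libraries are the same for each, so the count describes these libraries. A few non-neural cells were kept. The 15 to 57 cells per library that held markers of vessels, mesenchyme or microglia had 105 to 312 CPM of Foxp1, 18.6 to 33.2 CPM of Foxp2 and 6.63 to 22.0 CPM of Foxp4.

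Levels in young neurons were then compared with those in progenitors of the same library, leaving out the 16 to 72 cells per library that passed both limits. For Foxp1 the ratio of high-Dcx to high-Nes cells was 2.61 in LGE (2.41 to 2.84), 1.08 in CGE (0.893 to 1.33), 0.735 in CTX (0.673 to 0.801) and 0.565 in MGE (0.503 to 0.635). Foxp2 had ratios of 9.03 (7.61 to 10.8) in LGE, 4.81 (3.27 to 7.39) in CGE, 1.23 (1.04 to 1.45) in CTX and 0.847 (0.611 to 1.19) in MGE. Foxp4 had ratios of 7.84 (3.78 to 19.6) in CGE, 5.57 (4.70 to 6.66) in LGE, 2.34 (2.11 to 2.59) in CTX and 0.552 (0.390 to 0.788) in MGE. Young neurons thus had more Foxp4 than progenitors in 3 of the 4 libraries and less in MGE. Over the 4 libraries, with the library as a block, 0 of the 3 genes passed the test (edgeR quasi-likelihood, Benjamini-Hochberg adjusted p under 0.05 and a log2 change of at least 0.25), 1 had an unadjusted p under 0.05 and DESeq2 called 2, against 55.0% of 13388 genes called. The log2 change was 0.14 (SE 0.37, adjusted p = 0.763) for Foxp1, 1.48 (SE 0.62, adjusted p = 0.0893) for Foxp2 and 1.48 (SE 0.59, adjusted p = 0.0751) for Foxp4. DESeq2 gave adjusted p = 0.0205 for Foxp2 and 0.0142 for Foxp4 on the same sums, and without LGE the Foxp1 change was -0.31. Without CTX Foxp2 passed (log2 change 2.05, adjusted p = 0.0344), and without MGE Foxp4 passed (log2 change 2.14, adjusted p = 0.0109).

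The step from progenitor to neuron was split into ventricular zone (VZ), subventricular zone (SVZ) and mantle zone (MZ) classes in the 3 eminences, where VZ cells were high-Nes, SVZ cells had Dcx with Mki67 and Ccnd2, and MZ cells had Dcx without the progenitor and cycling genes. In LGE, Foxp2 had 31.3 CPM in VZ cells (26.7 to 36.5), 193 in SVZ cells (178 to 208) and 264 in MZ cells (247 to 282), so most of its difference lay between VZ and the cycling Dcx cells. In CGE, Foxp2 had 29.5 CPM (21.7 to 39.2), 35.5 CPM (23.2 to 52.0) and 106 CPM (98.7 to 113) in the same classes, with the larger difference between SVZ and MZ. In MGE it had 10.5, 5.61 and 16.3 CPM, from 53, 11 and 81 UMIs. The Foxp4 levels of LGE were 34.0, 107 and 147 CPM, those of CGE 8.78, 17.7 and 39.8 CPM, and those of MGE 10.9, 3.57 and 10.1 CPM. For Foxp1 the LGE levels were 137, 202 and 395 CPM, the MGE levels 94.0, 64.3 and 44.3 CPM, and the CGE levels 73.3, 43.7 and 83.1 CPM. Each class of LGE was thus above the one before it for all 3 genes, while in MGE Foxp1 was lower in each later class.

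In the test over these 3 libraries Foxp2 was higher in SVZ than in VZ cells, by 1.52 on the log2 scale (SE 0.51, edgeR adjusted p = 0.0406, higher in 2 of 3 libraries). Foxp1 (log2 change -0.10, adjusted p = 0.881) and Foxp4 (0.99, adjusted p = 0.131) did not pass, and 35.5% of 12221 genes were called. Without LGE the Foxp2 change was -0.19 and that of Foxp4 -0.42, without CGE the adjusted p of Foxp2 was 0.0910, and without the library term it was 0.217. The Foxp2 call was also lost with DESeq2 (log2 change 0.73, adjusted p = 0.505) and without the upper gene limit (adjusted p = 0.0603). For Foxp4, leaving out MGE gave a change of 1.70 with adjusted p = 0.000469. From SVZ to MZ the log2 changes were 0.43 for Foxp1, 0.64 for Foxp2 and 0.55 for Foxp4, with edgeR adjusted p-values of 0.397, 0.244 and 0.308, and 44.4% of genes were called. None of the 3 had an unadjusted p under 0.05 there, and DESeq2 called 0. Foxp2 and Foxp4 were higher in MZ than in SVZ cells in 3 of 3 libraries and Foxp1 in 2 of 3. Foxp2 passed without LGE (log2 change 1.53, adjusted p = 0.00796) and Foxp4 without MGE (1.31, adjusted p = 0.0442).

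**Figure D2:**
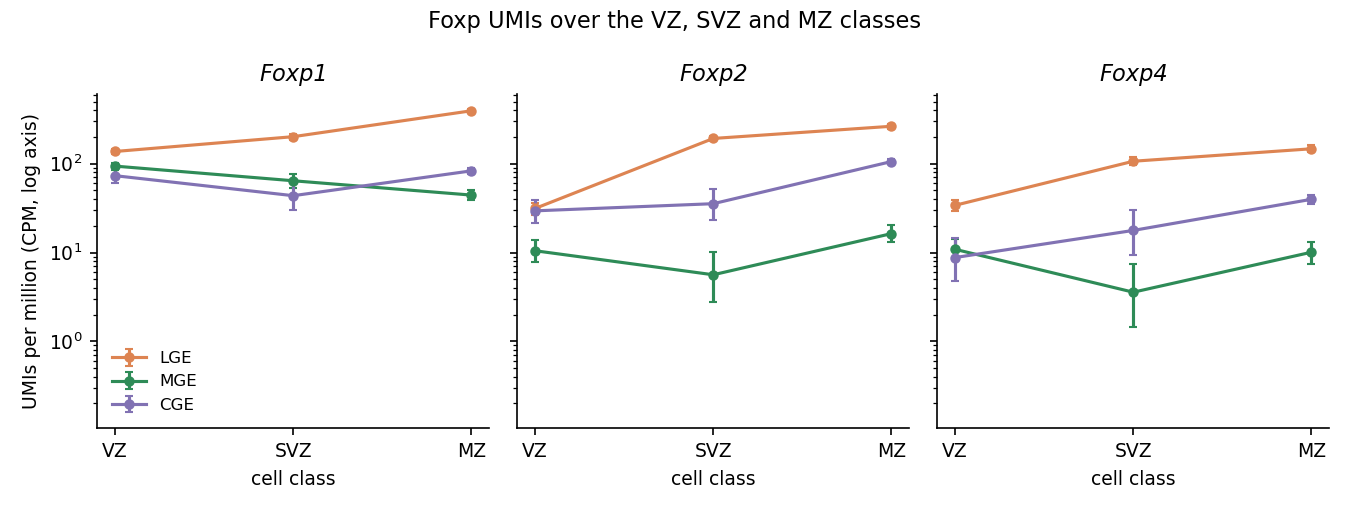
Levels of the 3 genes in UMIs per 1000000 (CPM, log axis) in the VZ, SVZ and MZ cell classes of the 3 eminence libraries, with exact Poisson 95% intervals. The LGE line of Foxp2 goes from 31.3 to 193 and 264 CPM, and the MGE line of Foxp1 from 94.0 to 44.3 CPM.

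High-Dcx cells were next divided by whether they held an Ebf1 UMI at the common depth of 3000 UMIs, and all UMIs of the cells were then summed. In LGE the 514 cells with Ebf1 had 763 CPM of Foxp1 and the 1560 cells without had 209, a ratio of 3.65 (3.46 to 3.86). In CGE 153 cells with Ebf1 had 270 CPM and 2098 without had 64.7, a ratio of 4.17 (3.67 to 4.74), and in MGE 90 cells with it had 86.6 CPM and 2059 without had 51.5, a ratio of 1.68 (1.26 to 2.21). The groups were apart in the same direction in all 3 libraries. Foxp2 had 364 against 200 CPM in LGE, 195 against 73.2 in CGE and 38.6 against 7.18 in MGE, the last from 25 UMIs in the Ebf1 cells. Foxp4 had 235 against 127 CPM in LGE, 57.0 against 34.7 in CGE and 54.1 against 3.77 in MGE, the last from 35 UMIs. CTX had 18 cells with Ebf1, which held 18 Foxp1 UMIs, and was not fitted.

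Over LGE, MGE and CGE both Foxp1 (log2 change 1.62, SE 0.23, edgeR adjusted p = 0.0052) and Foxp2 (1.36, SE 0.24, adjusted p = 0.0122) were higher with Ebf1, and Foxp4 (1.42, SE 0.48, adjusted p = 0.0993) did not pass. Of 12872 genes, 12.4% were called. Marker lists differed between the same cells: 3 of 5 young neuron markers tested were higher, 4 of 7 radial glia markers lower, 3 of 4 glutamatergic markers higher and 3 of 5 GABAergic markers lower, and their part in the Foxp result was not tested. The Foxp1 call was lost without LGE (adjusted p = 0.0628) and with a gate of 1.0 (adjusted p = 0.110), and without the library term the adjusted p was 0.281 for Foxp1 and 0.613 for Foxp2. It was also lost, with Foxp2, when cells were divided at their own depth, which brought CTX into the fit (adjusted p = 0.237 and 0.105). Foxp4 passed without MGE (log2 change 0.81, adjusted p = 0.00137) and without CGE (1.96, adjusted p = 0.0460).

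The same division by Isl1 again set Foxp1 apart in each eminence. The 761 LGE cells with Isl1 had 559 CPM of Foxp1 against 231 in 1313 cells without (ratio 2.42, 2.29 to 2.56). In CGE 199 cells with Isl1 had 247 CPM against 62.4 (ratio 3.97, 3.51 to 4.48), and in MGE 115 cells with Isl1 had 97.3 CPM against 50.4 (ratio 1.93, 1.51 to 2.44). Foxp2 had 299 against 209 CPM in LGE, 186 against 71.4 in CGE and 75.1 against 4.62 in MGE, where the ratio was 16.2 (11.2 to 23.5). Foxp4 had 179 against 141 CPM in LGE, 51.9 against 34.7 in CGE and 40.6 against 3.96 in MGE, where the ratio was 10.3 (6.44 to 16.1). MGE had the largest Foxp2 and Foxp4 ratios and the smallest Foxp1 ratio of the 3 eminences. All 784 CTX high-Dcx cells lacked an Isl1 UMI, which allows a share of up to 0.383%. In the fit Foxp1 was higher with Isl1 (log2 change 1.42, SE 0.18, edgeR adjusted p = 0.00271), while Foxp2 (1.52, SE 0.47, adjusted p = 0.0916) and Foxp4 (0.92, SE 0.41, adjusted p = 0.233) did not pass, against 9.09% of 12631 genes called. In the same cells 4 of 8 radial glia markers and 3 of 4 glutamatergic markers were lower, 1 of 5 GABAergic markers was higher and 3 lower, and 2 of 5 young neuron markers were higher, and their part in the Foxp1 result was not tested. Without the library term the adjusted p of Foxp1 was 0.522. Foxp2 passed without LGE (log2 change 2.32, adjusted p = 0.0142) and without MGE (0.91, adjusted p = 0.0119).

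The division by Tbr1 gave lower Foxp1 and Foxp2 in LGE and CGE but not in CTX. Foxp4 went opposite ways in LGE and CGE. In CTX, 401 high-Dcx cells with Tbr1 and 383 without had Foxp1 levels of 135 and 118 CPM (ratio 1.14, 0.996 to 1.31), Foxp2 levels of 51.2 and 38.4 CPM (1.33, 1.05 to 1.69) and Foxp4 levels of 183 and 164 CPM (1.11, 0.990 to 1.25). In LGE 24 cells held Tbr1, and their Foxp1 level was 46.0 CPM against 351 in the others, from 7 UMIs (ratio 0.131, 0.0527 to 0.270). Their Foxp2 level was 65.8 against 243 CPM, from 10 UMIs (0.271, 0.130 to 0.498). Their Foxp4 level was 85.5 against 155 CPM, from 13 UMIs (0.551, 0.293 to 0.945). In CGE 64 cells held Tbr1, with 41.9 against 81.8 CPM of Foxp1 (0.512, 0.320 to 0.779), 9.53 against 85.1 CPM of Foxp2 (0.112, 0.0363 to 0.262) and 59.1 against 35.6 CPM of Foxp4 (1.66, 1.12 to 2.38). The Tbr1 cells of CGE thus had less Foxp2 and more Foxp4 than the other high-Dcx cells of that library. Over CTX, LGE and CGE none of the 3 passed (edgeR log2 changes -0.91, -1.09 and 0.06 with adjusted p-values of 0.891, 0.876 and 1.00), and 0.285% of 11593 genes were called. At an unadjusted p under 0.05 the count of Foxp genes was also 0, and DESeq2 called 0. Without CTX, Foxp1 fell by 1.81 (edgeR adjusted p = 3.63e-07) and Foxp2 by 2.51 (adjusted p = 1.62e-10) on the log2 scale. That fit has only the LGE and CGE libraries. Their Tbr1 cells held 7 and 22 Foxp1 UMIs and 10 and 5 Foxp2 UMIs. Its p-values therefore say little about the spread between libraries.

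**Figure D3:**
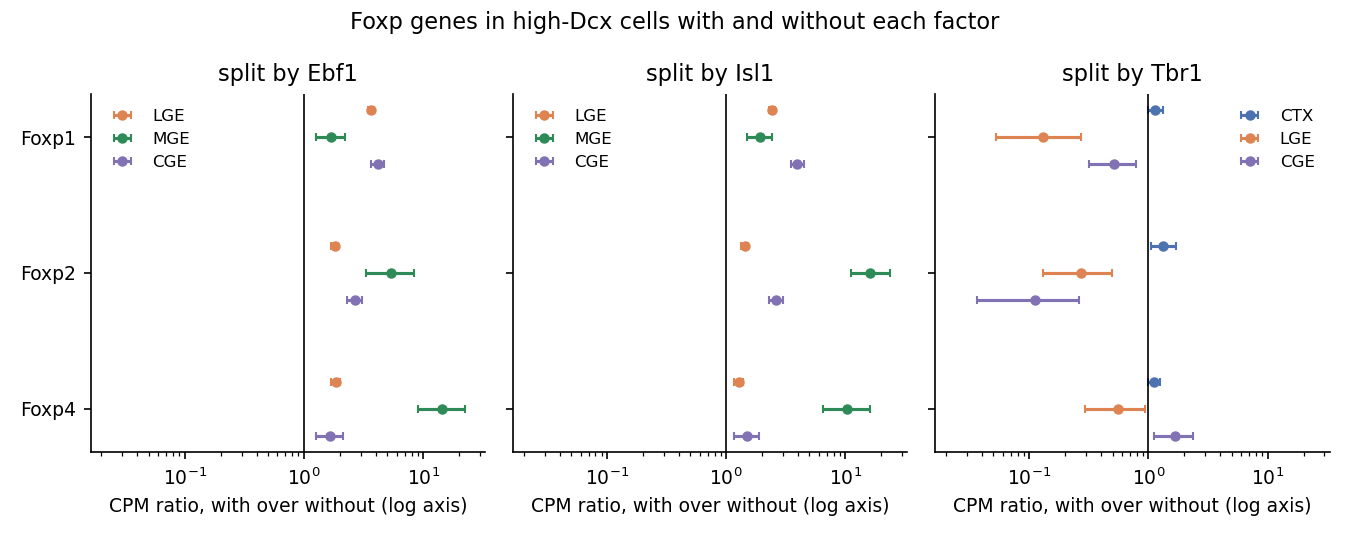
Ratio of the level (CPM) in high-Dcx cells with Ebf1, Isl1 or Tbr1 to that in cells without, for each Foxp gene and each library of the fit, on a log axis with exact 95% counting intervals. All Ebf1 and Isl1 ratios lie above 1, from 1.27 to 16.2, whereas the Tbr1 ratios lie on both sides of 1.

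Because Ebf1 and Isl1 mark overlapping cells, high-Dcx cells were also divided by both. In LGE the 402 cells with both had 871 CPM of Foxp1 (837 to 906), the 112 with Ebf1 alone 374 (333 to 419), the 359 with Isl1 alone 177 (160 to 195) and the 1201 with neither 218 (208 to 228). Cells with Isl1 alone were thus not above cells with neither. The same held for Foxp2, with 414 CPM in cells with both, 186 with Ebf1 alone, 158 with Isl1 alone and 211 with neither, and for Foxp4, with 245, 199, 97.8 and 135 CPM. The cells with both made up 19.4% of LGE high-Dcx cells and held 49.2% of the Foxp1 UMIs, 33.7% of the Foxp2 UMIs and 31.2% of the Foxp4 UMIs. Cells with neither held 51.5% of the Foxp2 and 51.5% of the Foxp4 UMIs.

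In CGE the 87 cells with both had 432 CPM of Foxp1 (385 to 484) and 307 CPM of Foxp2 (267 to 350), and the 66 with Ebf1 alone had 41.7 CPM (25.8 to 63.8) and 37.7 CPM (22.7 to 58.9). The cells with Ebf1 alone had 278 CPM of Tbr1, against 1.41 CPM in those with both. The 1986 cells with neither had 63.1 CPM of Foxp1 (59.0 to 67.5) and 72.6 CPM of Foxp2 (68.2 to 77.3), so Foxp2 was lower with Ebf1 alone than with neither beyond counting error. Foxp4 had 62.2 CPM in the CGE cells with both (45.2 to 83.4), 49.7 with Ebf1 alone, 43.2 with Isl1 alone and 34.2 with neither (31.1 to 37.4). In MGE Foxp2 was highest in the 51 cells with Isl1 alone (115 CPM, 81.9 to 156, from 40 UMIs), and Foxp1 in the 64 cells with both (114 CPM, 85.7 to 150). The 2008 MGE cells with neither had 50.9 CPM of Foxp1 and held 89.3% of the Foxp1 UMIs, but 4.39 CPM of Foxp2 and 47.6% of the Foxp2 UMIs. No test was made between combinations.

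**Figure D4:**
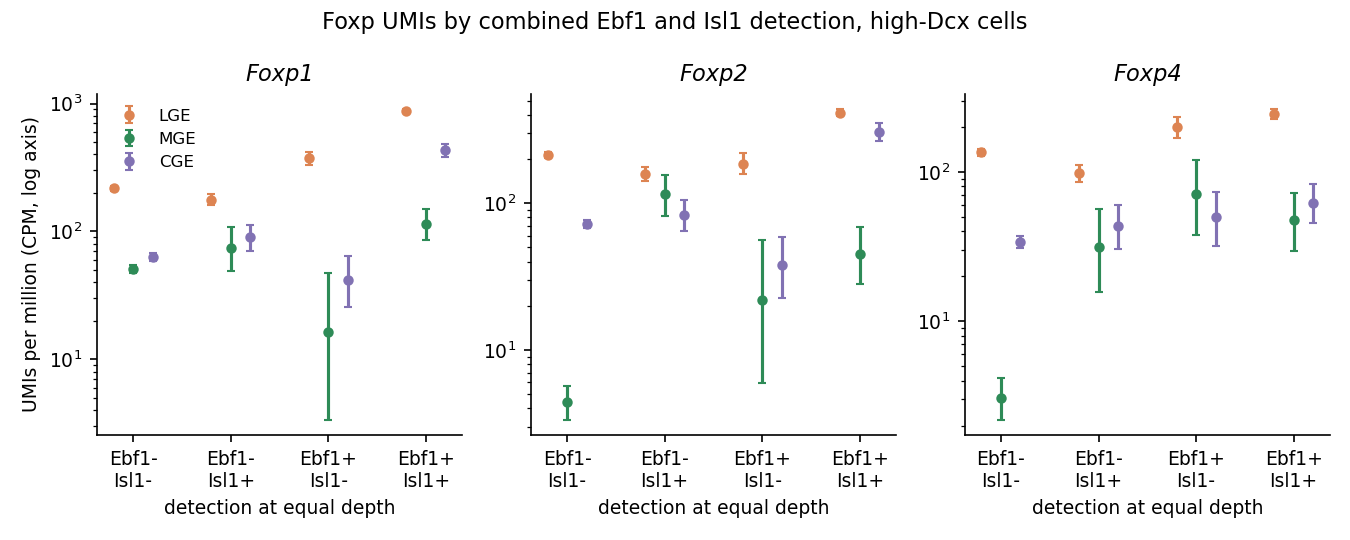
Levels (CPM, log axis) of each Foxp gene in high-Dcx cells of LGE, MGE and CGE grouped by detection of Ebf1 and Isl1 at equal depth, with exact Poisson 95% intervals. In cells with both, Foxp1 stands at 871 CPM (LGE) and 432 CPM (CGE), and Foxp2 at 4.39 CPM in MGE cells with neither.

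Joint detection of the paralogs was compared with the number of cells that independent detection would give. In high-Dcx cells at equal depth, Foxp2 and Foxp4 shared 79 CGE cells where 22.1 would be found if they were independent, a ratio of 3.58. The ratio was 1.43 in LGE (309 cells) and 1.17 in CTX (41 cells), and in MGE 5 cells held both. Foxp1 and Foxp2 shared 361 LGE cells (ratio 1.39), 51 CGE cells (1.51), 28 CTX cells (1.02) and 7 MGE cells. All 3 were found in 173 of 2074 LGE cells (8.34%), 12 of 2251 in CGE (0.533%), 11 of 784 in CTX (1.40%) and 1 of 2149 in MGE (0.0465%). By share of cells, joint detection of all 3 was thus higher in CTX than in MGE and CGE. This share was not compared with independent detection, and the shares of cells with each single gene also differed between libraries. For pairs, the ratios to independent detection were 1.02 to 1.17 in CTX and 1.51 to 3.58 in CGE. A cell without a UMI at this depth may or may not express the gene.

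With Foxp1 detected, the level of Foxp2 was 321 CPM against 188 in LGE, 137 against 73.9 in CGE, 54.7 against 41.0 in CTX and 14.1 against 7.85 in MGE. Foxp4 had 192 against 129 CPM in LGE, 198 against 164 in CTX, 53.5 against 33.7 in CGE and 11.2 against 5.34 in MGE. All 8 ratios were above 1. Both paralogs passed the test over the 4 libraries, Foxp2 with a log2 change of 0.75 (SE 0.08, edgeR adjusted p = 0.00457) and Foxp4 with 0.51 (SE 0.08, adjusted p = 0.0278), where 0.568% of 12505 genes were called. The Foxp4 call was lost without LGE (adjusted p = 0.220) and without CGE (0.123), without the upper gene limit (0.0719) and with a gate of 1.0 (0.0698), and both paralogs' calls were lost without the library term (adjusted p = 1.00 for each).

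Divisions by Foxp2 and by Foxp4 use the same pairs of genes and are not separate evidence. Cells with Foxp2 had more Foxp4 in 4 of 4 libraries, with 137 against 24.6 CPM in CGE (ratio 5.57, 4.69 to 6.60), 251 against 107 in LGE, 231 against 168 in CTX and 56.3 against 5.27 in MGE. The log2 change was 1.47 for Foxp4 (SE 0.33, edgeR adjusted p = 0.187) and 1.19 for Foxp1 (SE 0.23, adjusted p = 0.0990), and 0.209% of 12465 genes were called. Without CTX both passed, with adjusted p = 0.000478 and 1.14e-05. With Foxp4 detected, Foxp2 changed by 1.71 (SE 0.37, edgeR adjusted p = 0.206) and Foxp1 by 0.82 (SE 0.20, adjusted p = 0.308), where 0.22% of 12248 genes were called, and both passed without CTX (adjusted p = 0.00861 and 0.00482). All 4 values had an unadjusted p under 0.05 and lay above 0 in 4 of 4 libraries, and 0 passed after adjustment with edgeR. DESeq2 called the 2 values of the Foxp2 division (adjusted p = 0.0189 for Foxp1 and 0.0307 for Foxp4).

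In each of the 3 divisions by a Foxp gene, Nxph1, a neurexin ligand, was among the called genes with the largest decreases. The genes named are the called ones with the largest changes at 50 CPM or more and with one direction in every library. Somatostatin (Sst), a peptide of interneurons that arise in the MGE, had 8 UMIs in the 251 CGE cells with Foxp2 (4.85 CPM) and 491 CPM in the others. In LGE it had 9.76 against 253 CPM, and in CTX and MGE it had 0 UMIs in the 89 and 29 cells with Foxp2 against 72.2 and 70.6 CPM in the others. Its log2 change was -5.40 (SE 0.31, edgeR adjusted p = 0.000211). The peptide gene Npy fell by 4.05 (SE 0.43, adjusted p = 0.0106) and Nxph1 by 3.02 (SE 0.34, adjusted p = 0.0147) on the same scale. Both had 0 UMIs in the CTX cells with Foxp2, and Npy had 113 against 418 CPM in MGE. The differences were not even over regions: in MGE, cells with Foxp1 had 161 against 183 CPM of Maf and 295 against 429 CPM of Npy.

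With Foxp4, Nxph1 fell by 3.61 on the log2 scale (SE 0.14, edgeR adjusted p = 7.31e-06), from 163 to 17.8 CPM in CGE, 156 to 13.2 in MGE, 78.2 to 5.32 in LGE and 56.8 to 3.93 in CTX. Maf, a transcription factor of MGE-derived interneurons, fell by 3.06 (SE 0.18, edgeR adjusted p = 0.000165) and Npy by 2.36 (SE 0.35, adjusted p = 0.0351). With Foxp1 the decreases were 1.94 for Nxph1 (SE 0.31, edgeR adjusted p = 0.0228), 1.82 for Sst (SE 0.34, adjusted p = 0.0386) and 1.71 for Erbb4, a neuregulin receptor (SE 0.28, adjusted p = 0.0245), and the difference between paralogs was not tested. Sst in the Foxp2 division and Nxph1 and Maf in the Foxp4 division kept their call under 13 of 14 alternatives, all but the fit without the library term. The call of Nxph1 was lost without LGE or MGE in the Foxp2 division and without CGE in the Foxp1 division. In the Foxp1 division the calls of Nxph1, Sst and Erbb4 were also lost with DESeq2, without the library term and without the upper gene limit. The call of Npy was lost without LGE or CGE in both the Foxp2 and the Foxp4 division (in the latter also with DESeq2), that of Sst without MGE and that of Erbb4 without CGE in the Foxp1 division.

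**Figure D5:**
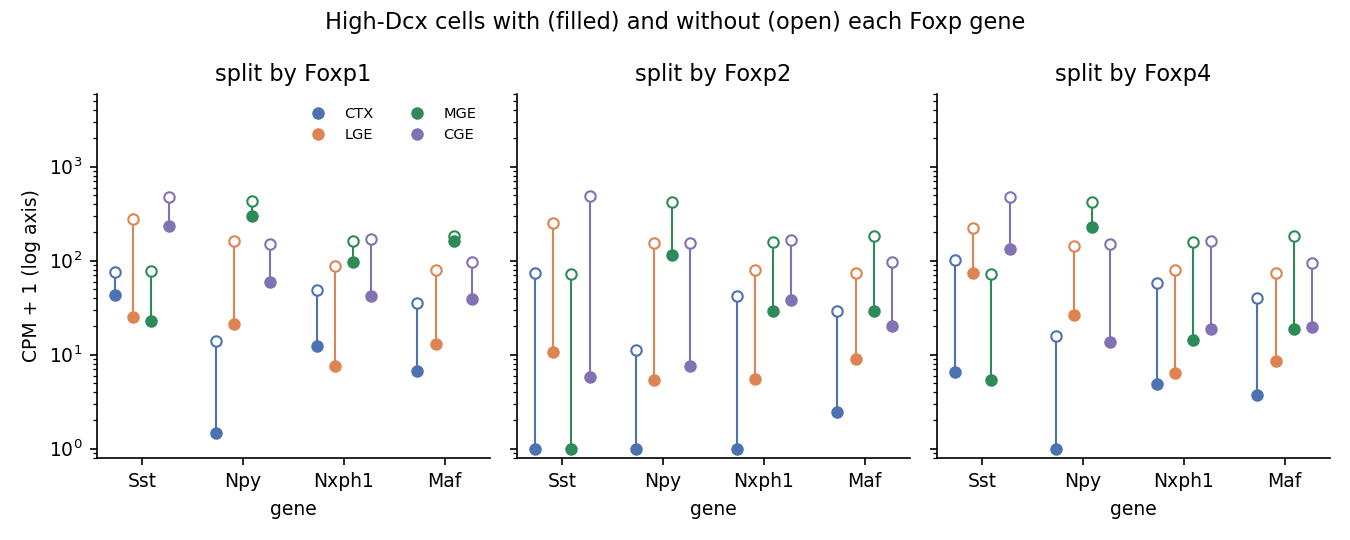
Levels of Sst, Npy, Nxph1 and Maf (CPM + 1, log axis) in high-Dcx cells with (filled) and without (open) Foxp1, Foxp2 or Foxp4 in each library. Every filled point lies below its open point, and Sst in the Foxp2 division drops from 491 to 4.85 CPM in CGE.

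Called genes were 41 higher and 30 lower with Foxp1, 7 higher and 19 lower with Foxp2, and 1 higher and 26 lower with Foxp4. With Foxp2, Ptn (pleiotrophin, a growth factor) was higher by 1.45 on the log2 scale (SE 0.18, edgeR adjusted p = 0.0236), with 71.0 against 25.4 CPM in the LGE library and 62.4 against 24.0 in that of CGE, and Dcbld2, a membrane protein, by 1.38 (SE 0.17, adjusted p = 0.0238). With Foxp4, Dlk1, a membrane ligand related to Notch ligands, was higher by 1.62 (SE 0.20, edgeR adjusted p = 0.0152), with 163 against 41.7 CPM in the LGE library and 199 against 43.1 in that of MGE. The cells with Foxp4 held 45 Dlk1 UMIs in MGE and 8 in CTX. In LGE, Dlk1 was also higher with Foxp1 (176 against 16.3 CPM) and with Foxp2 (148 against 47.7 CPM). In MGE it was lower with Foxp1 (34.1 against 47.0 CPM) and with Foxp2 (32.8 against 45.7 CPM). With Foxp1 the named higher genes were the ephrin receptor Ephb1 (1.28, SE 0.21, edgeR adjusted p = 0.0245), the splicing factor Rbfox1 (1.00), the adhesion molecule L1cam (0.61) and Zdbf2 (0.56), beside Foxp2. In CTX Zdbf2 was nearly even with and without Foxp1 (31.7 against 31.1 CPM). Dcbld2 was nearly even there with and without Foxp2 (5.85 against 5.81 CPM, the former from 4 UMIs). The calls of Ephb1, Rbfox1, L1cam, Zdbf2, Ptn and Dcbld2 were each lost without LGE and without CGE, and that of Dlk1 without LGE. Rbfox1, L1cam, Zdbf2 and Dcbld2 also lost theirs without MGE. All 7 lost them without the library term, and Zdbf2 also with DESeq2.

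Of 13 genes of striatal projection neurons, 11 were tested with Foxp1 and 5 rose, among them Ebf1 (log2 change 1.50), Isl1 (1.25), the enkephalin gene Penk (2.67) and the retinoic acid receptor gene Rarb (2.12), with edgeR adjusted p-values of 0.00686 to 0.0223 for these 4. Ebf1 and Isl1 are the same associations seen from the other side. None of the 11 fell, and their median change was 1.25, against 0.00 over all genes tested, of which 0.328% were called higher. In the Foxp2 division 1 of the 11 rose (Ebf1, 1.93, edgeR adjusted p = 0.0475) with a median of 1.18, and in the Foxp4 division 0 did, with a median of 1.10, although 10 of the 11 had an unadjusted p under 0.05. DESeq2 also called 0 in the Foxp4 division. The calls of Ebf1, Penk and Rarb in the Foxp1 division were lost without LGE, that of Penk also without CGE, and that of Isl1 without MGE. DESeq2 called 2 of the 11 in the Foxp1 division, and the calls of Ebf1 and Isl1 were lost with it. The Ebf1 call in the Foxp2 division was lost without LGE, MGE or CGE. Of 10 genes of deep-layer cortical neurons, all tested, edgeR called 0 in each of the 3 divisions, with medians of -0.03, -0.80 and 0.23. At an unadjusted p under 0.05 there were 3, 4 and 3, and DESeq2 called 0. In the same divisions 0 of 5 glutamatergic, 0 of 5 GABAergic, 0 of 8 radial glia and 0 of 5 young neuron markers tested were called by edgeR or by DESeq2. Over all genes edgeR called 0.568%, 0.209% and 0.22% in these divisions. A count of 0 in a short list therefore does not show that the cells were alike. At an unadjusted p under 0.05 there were 0 to 3 of each list per division.

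Of 6 genes described as Foxp2 targets, Cntnap2 and Mef2c had enough UMIs to be tested. In the Foxp2 division, where edgeR called 0.209% of all genes, edgeR and DESeq2 called 0 of them, and 1 had an unadjusted p under 0.05. Mef2c, a transcription factor gene of neuron maturation, fell by 0.46 (SE 0.07, edgeR adjusted p = 0.0152) with Foxp1 and by 1.02 (SE 0.12, adjusted p = 0.0152) with Foxp4, lower in 4 of 4 libraries each time, and both calls were lost without LGE, without the library term and with a gate of 1.0 or 2.0, the first also without CGE. Of 13 co-repressor genes whose products bind Foxp proteins or belong to the NuRD complex, all were tested. From SVZ to MZ 8 fell and 0 rose, among them the deacetylase gene Hdac1 (log2 change -1.25, edgeR adjusted p = 0.000277) and the histone chaperone genes Rbbp7 (-1.44, adjusted p = 6.3e-06) and Rbbp4 (-0.73, adjusted p = 9.83e-05), with a list median of -0.50 against 0.03 over all genes, of which 44.4% were called and 21.6% were lower. From VZ to SVZ 5 rose and 2 fell, with Ctbp1 higher by 0.44 (edgeR adjusted p = 0.00127) and Gatad2a lower by 0.99 (adjusted p = 0.000637), where 35.5% of all genes were called. The SVZ to MZ calls of Ctbp2, Mbd2 and Mta2 were lost without LGE or CGE, and Mta2 kept its call in 7 of 12 alternatives. The VZ to SVZ calls of Chd4, Hdac2 and Rbbp4 were lost without LGE, those of Gatad2b and Rbbp7 without MGE. SVZ cells were chosen with Mki67 and Ccnd2 and MZ cells without them, and the part of cycling in these changes was not tested. In the Foxp divisions edgeR and DESeq2 called 0 of the 13, with 0, 2 and 0 at an unadjusted p under 0.05. There edgeR called 0.209% to 0.568% of all genes.

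Of 41 other forkhead genes, 18 passed the filter on low counts in the comparison of high-Dcx with high-Nes cells. Among these 3 rose and 7 fell, while 55.0% of all genes were called and 27.4% were lower. Their median change was -0.82 against 0.01 over all genes. The 7 were Foxc1, Foxd1, Foxf2, Foxj1, Foxm1, Foxn2 and Foxs1. In the same comparison 6 of 6 endothelial, 3 of 3 mesenchyme and 6 of 7 microglia markers tested were also lower. The part of non-neural high-Nes cells in the forkhead result was not tested. Foxm1, a factor of cycling cells, fell by 1.53 on the log2 scale (SE 0.24, edgeR adjusted p = 0.00318). In the Foxp divisions edgeR and DESeq2 called 0 of the 12 tested, with 0, 1 and 3 at an unadjusted p under 0.05. The share of all genes called by edgeR there was 0.209% to 0.568%.

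Over 12 sums, 3 in each library (high-Nes only, high-Dcx only and neither), each Foxp gene was compared with 8499 others by Pearson correlation of log2(CPM + 1). These sums share libraries and depth and the values are a description. The closest to Foxp1 were Pcbp3 (0.886), Aldh1a3 (0.858), Uchl3 (0.855), 2700033N17Rik (0.854) and G630016G05Rik (0.837). Those to Foxp2 were Nrg1 (0.913), Uchl3 (0.863), Lsm11 (0.847), Tspan9 (0.844) and Ublcp1 (0.841), and those to Foxp4 were Tecr (0.933), Camkv (0.909), Ciapin1 (0.899), Mrps26 (0.882) and Robo3 (0.873). Foxp4 was 14th and Foxp2 24th among the genes closest to Foxp1, with 0.765 and 0.740.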

How the data were processed

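Wild-type mouse forebrain at E12.5 gave 4 droplet libraries (10x Genomics), 1 per region. The labels describe a sort for live cells and the methods of the study describe unsorted wild-type cells, and this was not settled. The authors deposited raw UMI counts per gene and barcode, made with Cell Ranger (3.0.0 per the processing notes, 3.0.2 per the file headers) on mm10, and these counts are neither normalized nor scaled by length. So levels are not compared between genes. The annotation release and strand setting are not given in the sources used here, and gene positions came from GENCODE M21.

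Barcodes with more than 1500 and fewer than 4500 genes, under 5% mitochondrial and under 1% Hbb UMIs were kept, and simulated-doublet scores removed the top 0.8% per 1000 barcodes. Cells were thinned to 3000 UMIs for shares and divisions, which left out shallower cells (45 to 92 per library). VZ cells were high-Nes. Both later classes were high-Dcx. SVZ cells also passed 0.5 for Ccnd2 and Mki67 and stayed below it for Rbfox3 and Mapt. MZ cells stayed below 0.5 for the cycling genes (Ccnd1, Ccnd2, Mki67) and for Hes5 and Nes. Cells past both the first and the second rule entered neither class. Sums over at least 20 cells were tested with edgeR 4.0.16 (quasi-likelihood, TMM, filterByExpr, library as a block since both sums of a pair come from the same embryos), with Benjamini-Hochberg adjustment over all genes tested, and checked on simulated data. DESeq2 1.42.0 was an alternative, with other filters, gates, thinning and left-out libraries. Levels carry exact Poisson and shares exact Clopper-Pearson 95% intervals. P-values measure the spread between the region libraries.

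The members and lists were chosen with earlier results of these data known. Genes named from the divisions by a Foxp gene were the 5 highest and 3 lowest called genes by log2 change at 50 CPM or more in either arm and with 1 direction in every library. Of the fixed lists every gene that passed the filter on low counts was tested and counted, and values are given for called members or examples of them. Some list members are not reported here by name. The 5 genes most like each member were ranked by Pearson correlation.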

Additional observations from a re-analysis of the deposited data

Results flagged for a closer look

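The results in this section are contrasts within a library that pointed opposite ways in different regions, with counting intervals on both sides of a ratio of 1. Each region had 1 library, so the differences between regions were not tested. For Foxp1 the ratio of high-Dcx to high-Nes cells was 2.61 in LGE and 0.565 in MGE, and CTX was also below 1. From VZ to SVZ cells the Foxp1 ratio was 1.47 in LGE and 0.595 in CGE, with MGE also below 1, and from SVZ to MZ cells it was 1.96 in LGE and 0.69 in MGE, with CGE also above 1. The Foxp4 ratio of high-Dcx to high-Nes cells was 7.84 in CGE and 0.552 in MGE, with CTX and LGE above 1, and from VZ to SVZ cells it was 3.14 in LGE and 0.329 in MGE, the latter from 7 UMIs in SVZ cells.

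In the division by Tbr1, Foxp2 had a ratio of 1.33 in CTX and 0.112 in CGE, the latter from 5 UMIs in the Tbr1 cells, with LGE also below 1. Foxp4 had a ratio of 1.66 in CGE and 0.551 in LGE, the latter from 13 UMIs in 24 cells.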

How the results depend on the processing

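Few UMIs limit Foxp2 and Foxp4 in MGE and all 3 genes in the Tbr1 cells of LGE, and each main test rests on 3 or 4 libraries. Fits with a library left out rest on fewer, and their p-values measure the spread between libraries less well. The fit has the library as a block because both sums of a pair come from the same embryos. Values after a gene are log2 changes, young neurons means high-Dcx against high-Nes cells, and with means cells with against cells without the gene. Causes were not tested. Called genes numbered 7359 young neurons, 4341 SVZ against VZ, 5425 MZ against SVZ, 1594 with Ebf1, 1148 with Isl1, 33 with Tbr1, 71 with Foxp1, 26 with Foxp2 and 27 with Foxp4. With DESeq2, the call was lost for Foxp2 SVZ against VZ (0.73), the call was gained for Foxp2 young neurons (1.45), Foxp4 young neurons (1.57), Foxp1 with Foxp2 (1.23) and Foxp4 with Foxp2 (1.80) and called genes numbered 76 with Tbr1, 41 with Foxp1 and 43 with Foxp2. Without the low-count filter, the call was gained for Foxp4 young neurons (1.51), Foxp4 SVZ against VZ (0.95), Foxp1 MZ against SVZ (0.44), Foxp2 MZ against SVZ (0.66), Foxp4 MZ against SVZ (0.57), Foxp4 with Ebf1 (1.38), Foxp2 with Isl1 (1.49), Foxp4 with Isl1 (0.88), Foxp1 with Tbr1 (-0.94), Foxp2 with Tbr1 (-1.13), Foxp1 with Foxp2 (1.16), Foxp4 with Foxp2 (1.44), Foxp1 with Foxp4 (0.79) and Foxp2 with Foxp4 (1.68) and called genes numbered 2577 with Ebf1, 2038 with Isl1, 401 with Tbr1, 406 with Foxp1, 198 with Foxp2 and 294 with Foxp4. With sums thinned to 3000 UMIs per cell, the call was gained for Foxp4 young neurons (1.51), Foxp4 SVZ against VZ (1.19), Foxp1 with Foxp2 (1.15), Foxp4 with Foxp2 (1.36), Foxp1 with Foxp4 (0.73) and Foxp2 with Foxp4 (1.75) and called genes numbered 2523 SVZ against VZ, 3597 MZ against SVZ, 1061 with Ebf1, 594 with Isl1, 105 with Foxp2 and 52 with Foxp4. With a gate of 2.0, the call was gained for Foxp4 young neurons (1.52) and Foxp4 SVZ against VZ (1.76), the sign changed for Foxp1 SVZ against VZ (0.24) and Foxp4 MZ against SVZ (-0.057), the log2 ratio of CTX to CGE of Foxp1 in high-Nes cells was 1.54 and called genes numbered 3183 MZ against SVZ, 893 with Ebf1, 691 with Isl1, 7 with Tbr1, 47 with Foxp2 and 41 with Foxp4. Without the library block, the call was lost for Foxp2 SVZ against VZ (2.01), Foxp1 with Ebf1 (1.80), Foxp2 with Ebf1 (1.12), Foxp1 with Isl1 (1.40), Foxp2 with Foxp1 (0.77) and Foxp4 with Foxp1 (0.46), the sign changed for Foxp1 SVZ against VZ (0.22) and Foxp4 with Tbr1 (-0.049) and called genes numbered 92 with Ebf1, 23 with Isl1, 0 with Tbr1, 0 with Foxp1, 0 with Foxp2 and 0 with Foxp4. Without the upper gene limit, the call was lost for Foxp2 SVZ against VZ (1.55) and Foxp4 with Foxp1 (0.48), the sign changed for Foxp4 with Tbr1 (-0.020) and called genes numbered 12 with Foxp1 and 8 with Foxp2. With a gate of 1.0, the call was lost for Foxp1 with Ebf1 (1.23) and Foxp4 with Foxp1 (0.57) and called genes numbered 833 with Ebf1, 20 with Foxp1, 16 with Foxp2 and 16 with Foxp4. With divisions at the own depth of each cell, the call was lost for Foxp1 with Ebf1 (0.99) and Foxp2 with Ebf1 (1.01), the call was gained for Foxp1 with Foxp2 (1.31) and called genes numbered 153 with Ebf1, 340 with Isl1, 75 with Tbr1, 337 with Foxp1 and 148 with Foxp2. With predicted doublets kept, called genes numbered 11 with Foxp2. With each library left out in turn, the log2 changes whose call or sign moved ranged as follows. For Foxp1 young neurons -0.31 to 0.45, Foxp2 young neurons 0.80 to 2.05, Foxp4 young neurons 1.00 to 2.14, Foxp1 SVZ against VZ -0.51 to 0.26 and Foxp2 SVZ against VZ -0.19 to 2.16. For Foxp4 SVZ against VZ -0.42 to 1.70, Foxp2 MZ against SVZ 0.44 to 1.53, Foxp4 MZ against SVZ 0.40 to 1.31, Foxp1 with Ebf1 1.37 to 1.95 and Foxp4 with Ebf1 0.81 to 1.96. For Foxp2 with Isl1 0.91 to 2.32, Foxp1 with Tbr1 -1.81 to -0.25, Foxp2 with Tbr1 -2.51 to -0.53, Foxp4 with Tbr1 -0.28 to 0.40 and Foxp4 with Foxp1 0.47 to 0.63. For Foxp1 with Foxp2 1.06 to 1.50, Foxp4 with Foxp2 1.12 to 1.83, Foxp1 with Foxp4 0.67 to 1.10 and Foxp2 with Foxp4 1.19 to 2.09. Called genes then numbered 2589 to 3249 SVZ against VZ, 427 to 1763 with Ebf1, 618 to 998 with Isl1, 0 to 430 with Tbr1, 12 to 188 with Foxp1, 2 to 363 with Foxp2 and 4 to 72 with Foxp4. Removing non-neural cells changed no call or sign and moved no count of calls by over 1.5 times.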

Other observations

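High-Dcx cells were also grouped by detection of Foxp2 and Foxp4 at equal depth, a grouping and a set of genes chosen after the other values were seen. No test was made. In CGE the 79 cells with both had 2866 CPM of Meis2 and 270 CPM of Tshz1, against 558 and 46.8 CPM in the 1881 cells with neither. Meis2 and Tshz1 are transcription factor genes known from LGE-derived projection neurons and intercalated cells of the amygdala. Ebf1 had 308 CPM in the CGE cells with both and 519 CPM in the 172 cells with Foxp2 alone, against 76.6 CPM with neither. Lhx6, a factor of MGE-derived interneurons, had 15.3 CPM with both and 93.9 CPM with neither. Nr2f2 had 407 CPM in the CGE cells with both and 671 CPM with neither, but 0.463 CPM in the LGE cells with both. In CGE Pax6 was nearly even (93.7 against 82.0 CPM). Etv1 had 3.83 CPM with both (0.463 to 13.8, from 2 UMIs) and 12.6 CPM with neither (10.7 to 14.6), which did not differ beyond counting error. Sp8 (126 against 65.8 CPM) and Isl1 (149 against 84.5 CPM) were higher with both than with neither. Isl1 was higher still in the CGE cells with Foxp2 alone (308 CPM) and with Foxp4 alone (326 CPM). Sp8 had 81.6 and 74.7 CPM in those cells.

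In LGE the 309 cells with both had 665 CPM of Foxp1, the 362 with Foxp2 alone 517, the 358 with Foxp4 alone 361 and the 1045 with neither 188. Tshz1 had 318, 167, 74.8 and 72.6 CPM in the same order, so its level in cells with Foxp4 alone was like that in cells with neither. Meis2 lay between 2391 and 2983 CPM in all 4 groups of LGE. In CTX Foxp1 was nearly even, with 124 to 142 CPM over the 4 groups.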
